A study of Mus musculus with 3 samples.

Results

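Fos, Fosb, Jun, Junb, Jund, Egr1, Zfp36, Ier2, Btg2 and Dusp1 are immediate early genes that are widely used as markers of the response of cells to tissue dissociation. They are 10 of the 16178 genes in the filtered table and were taken by name, with no measured value in the choice. Single cells of the mouse subventricular zone, the stem cell niche along the wall of the lateral ventricle, were sorted into plates and sequenced by SORT-seq, in which every well has a barcode and every transcript a molecular identifier. The autofluorescence of each sorted cell, the light it emits with no added dye, was recorded as well, since the study asked by its title whether that light marks the activation of neural stem cells. The filtered table holds 149 cells, of which 43, 45 and 61 came from plates 1, 2 and 3, and the authors placed them in clusters numbered 0 to 4. The 3 samples are 3 plates of 1 group: male C57BL/6J mice from Envigo with no transgene or drug named, 8 animals used per experiment and not told apart afterwards. In all of them the tissue was minced, digested in warm trypsin, kept cold from then on and selected on a magnetic column for GLAST, a glutamate transporter of astrocytes and stem cells, and myelin was removed in 2 of the 3 experiments, which the labels do not name. Every cell was therefore dissociated, and the level of these genes before dissociation was not measured.

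Immediate early genes are transcribed within minutes of a stimulus by factors already present in the cell, chiefly serum response factor and the cyclic AMP response element binding protein, which are switched on by kinase cascades. Fos and Jun proteins pair to form the transcription factor AP-1, Egr1 is a zinc finger transcription factor, and Zfp36, Btg2 and Dusp1 act as brakes on messenger RNA stability, proliferation and kinase signalling. Enzymatic digestion of brain tissue at body temperature is known to switch these genes on, microglia included.

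Promoter sequence is shown here because these genes share a known mode of control. RefSeq promoters of GRCm38.p6 were matched by symbol for 8 of the 10 genes, all but Egr1 and Ier2, which were not searched. The 250 bases before the start were searched on both strands. A CArG box, the core of the serum response element, was found in 1 of the 8, Zfp36, and in 1.47% of all 32851 promoters of the table. The cyclic AMP response element TGACGTCA was found in 2, Btg2 and Dusp1, and in 1.55% of all promoters. Its core TGACG, which overlaps the whole element and was added to the search after the sequences had been seen, was found in 5, namely Fos, Fosb, Junb, Btg2 and Dusp1, and in 17.8% of all promoters. The Egr site GCGNGGGCG was found in 3, Fosb, Zfp36 and Btg2, and in 4.7% of all promoters. The AP-1 site TGANTCA was found in 0 of the 8 and in 6.75% of all promoters. The windows of Jun and Jund held none of the 5 motifs. A match describes the letters in the window and is not a measured binding site. Sites further upstream lie outside the window, so the lack of a match does not show that a gene has no such site. The sequences run 5′ to 3′ on the strand of the gene, with the motif in capitals: the core 66, 60 and 106 bases before the start of Fos, Fosb and Junb (chr12:85473804-85473848, plus strand; chr7:19310081-19310125, minus strand; chr8:84978830-84978874, minus strand), the whole element 166 and 143 bases before Btg2 and Dusp1 (chr1:134079294-134079341 and chr17:26508588-26508635, minus strand), and the CArG box 58 bases before Zfp36 (chr7:28379257-28379306, minus strand).
Fos: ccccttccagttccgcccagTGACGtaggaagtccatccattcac
Fosb: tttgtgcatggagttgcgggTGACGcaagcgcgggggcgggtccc
Junb: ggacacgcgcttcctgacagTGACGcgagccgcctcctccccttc
Btg2: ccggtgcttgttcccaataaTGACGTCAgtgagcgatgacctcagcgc
Dusp1: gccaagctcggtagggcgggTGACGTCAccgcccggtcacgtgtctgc
Zfp36: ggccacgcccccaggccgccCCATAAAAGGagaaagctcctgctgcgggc

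The labels call the cells neural stem cells, and the marker genes describe a wider mix. Cluster 1, with 36 cells, was microglia-like: the 8 microglial markers together reached 35844 CPM (estimated transcripts of a gene per 1000000 of the cells summed) there and 185 to 700 in the other clusters. Markers of the oligodendrocyte lineage were highest in the 42 cells of cluster 0 and the 35 of cluster 2, the 30 cells of cluster 3 had the highest level of all 10 quiescent stem cell or astrocyte markers, and the 6 cells of cluster 4 had the highest level of all 8 activated stem cell or progenitor markers. In cluster 1, 4 of 5 markers of border or blood macrophages were at 0 and the list summed to 55.0 CPM. The plates held 297573, 413728 and 478504 estimated transcripts, and cells held 1208 to 37442, with a median of 3455 in cluster 1 and 8079 elsewhere. Plate 1 held 25 of the 30 cells of cluster 3 and plates 2 and 3 held 41 of the 42 cells of cluster 0, so plate and cell type are tied together outside cluster 1, which had 9, 18 and 9 cells. Transcripts were summed over the cells of a plate and cluster, and sums of under 3 cells were left out, which gave 3 sums of cluster 1 and 8 of the others. The clusters were drawn by the authors from these same expression values, so levels are described by cluster with no test.

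The microglia-like cells of cluster 1 carried most of these transcripts. They held 24.2% of the cells and 10.7% of all transcripts, and they gave 59.3% of the summed transcripts of the 10 genes. On plates 1, 2 and 3 the 10 genes together took 8360, 10305 and 11926 CPM in cluster 1 and 1125, 703 and 763 CPM in all other cells. The mean was 10197 ± 1785 CPM (SD, n = 3 plates) in cluster 1 and the ratio to the other cells had a mean of 11.9, or 3.58 ± 0.59 (SD, n = 3) on the log2 scale. This and every later mean ratio is a geometric mean over plates. All 3 sums of cluster 1 lay above all 8 other sums for 9 of the 10 genes, the exception being Ier2. Over all 13898 genes with a transcript in any cell, 5.86% were placed in this way, and over the 4412 with one in at least 30 cells 7.75% were. The latter share is no measure for the early genes, since 6 of them reach 30 cells only with the cells of cluster 1, where they are high, and Ier2 does not reach it.

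**Figure D1:**
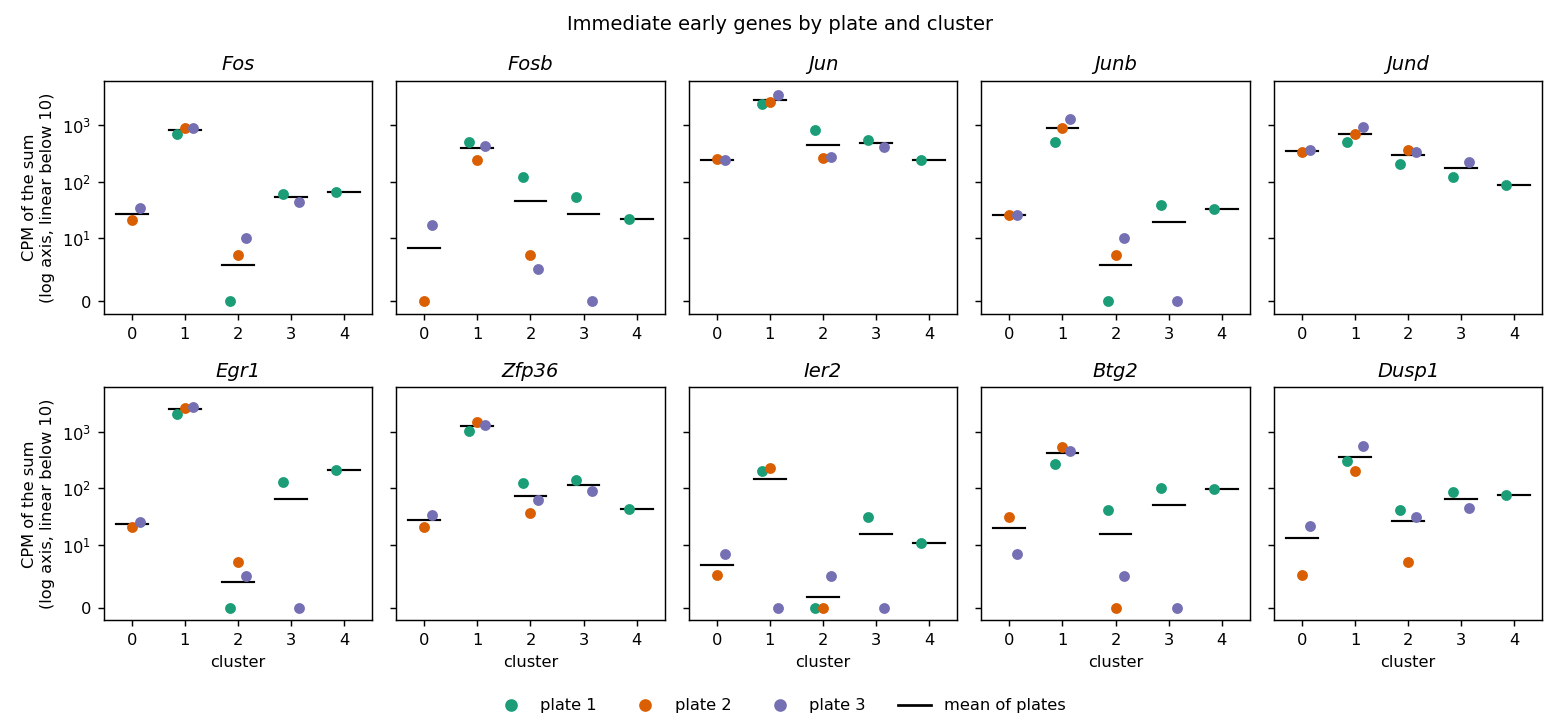
Level of each gene in CPM (log axis above 10, linear below) in the sum of the cells of each plate and cluster with at least 3 cells, 1 point per plate, with a bar at the mean of the plates. In cluster 1 the points of 9 genes lie above every other point, and the point of Ier2 on plate 3 lies at 0.

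Among the AP-1 subunits, Fos was at 708, 897 and 881 CPM in cluster 1 on plates 1, 2 and 3 and at 56.0, 14.7 and 24.2 CPM in the other cells. The mean ratio was 30.4, and the lowest cluster 1 sum was more than every sum of another cluster, which reached at most 65.2 CPM. Its partner Fosb was at 506, 244 and 419 CPM in cluster 1 and at 44.8, 2.94 and 10.997 CPM elsewhere. The plate 2 value elsewhere rests on 1 identifier, and on plate 1 a single cell gave 9 of the 15 Fosb identifiers of cluster 1. Junb was at 505, 883 and 1301 CPM in cluster 1 and at 29.9, 17.6 and 17.6 CPM elsewhere, a mean ratio of 39.7.

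Jun and Jund were spread more widely. Jun, the core partner in AP-1, was at 2327, 2530 and 3362 CPM in cluster 1 and at 445, 259 and 262 CPM elsewhere, a mean ratio of 8.69. It was found in 97.2% of the cells of cluster 1 and in 85.7%, 77.1%, 73.3% and 100% of the cells of clusters 0, 2, 3 and 4. Jund, the subunit that many resting cells express, was at 505, 693 and 923 CPM in cluster 1 and at 127, 338 and 345 CPM elsewhere, and its mean ratio of 2.79 was the lowest of the 6 genes with a ratio on every plate. Cluster 1 gave 22.3% of all Jund transcripts and 50.7% to 86.9% of those of the other 9 genes. Among the other clusters, Jund was at 340.5 and 365 CPM in the 2 sums of cluster 0 and at 122 and 224 CPM in those of cluster 3. The 122 CPM came from plate 1, where cluster 0 had no sum, and the 224 CPM from 4 cells of plate 3.

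Egr1 had the widest gap of the set. It was at 2023, 2639 and 2731 CPM in cluster 1 and at 134, 14.7 and 15.4 CPM in the other cells, a geometric mean ratio of 78.2. The ratio was 15.0 on plate 1 and 179 and 177 on plates 2 and 3, where only 5 and 7 identifiers lay outside cluster 1. On plate 1, 17 of the 36 identifiers outside cluster 1 lay in cluster 3 and 19 in cluster 4, whose sum of 5 cells was at 206 CPM.

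Of the genes that act as brakes, Zfp36, which encodes tristetraprolin and marks AU-rich messenger RNAs for decay, was at 1011, 1454 and 1302 CPM in cluster 1 and at 101, 26.5 and 48.4 CPM elsewhere, a mean ratio of 24.6. Btg2, an antiproliferative protein that recruits a deadenylase, was at 269, 530 and 461 CPM in cluster 1 and at 89.6, 17.6 and 6.60 CPM elsewhere. Dusp1, a phosphatase that switches off MAP kinases, was at 303, 204 and 546 CPM in cluster 1 and at 74.7, 5.88 and 26.4 CPM elsewhere. The ratio to the other cells differed between plates, from 3.01 on plate 1 to 30.02 on plate 2 for Btg2 and from 4.06 on plate 1 to 20.7 on plate 3 for Dusp1, and none is given where the other cells held at most 3 identifiers. Ier2, an immediate early gene of a nuclear protein, was at 202 and 231 CPM in cluster 1 on plates 1 and 2 and had 0 identifiers in the 9 cells of plate 3, where an exact Poisson interval at 95% reaches 155 CPM. It was the sparsest of the 10 genes, with 34 identifiers in 20 cells. These intervals cover counting error only.

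The spread between plates within cluster 1 was smaller than the gap to the other clusters. The highest plate had 1.43 times the summed CPM of the lowest. The exact 95% Poisson intervals of the 3 sums were 7359 to 9476, 9594 to 11077 and 10577 to 13394 CPM. That of plate 1 lies below those of plates 2 and 3, but these intervals cover counting error only and leave out the spread between cells. Without a cell of plate 1 with few microglial markers, that plate was at 8806 CPM instead of 8360 CPM. Each plate is 1 sample, so the difference between plates has no replicate. Jun, Junb, Jund and Egr1 had the same order of plates. They were at 2327, 505, 505 and 2023 CPM on plate 1 and at 3362, 1301, 923 and 2731 CPM on plate 3.

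Outside cluster 1 the 10 genes stood at similar summed levels. Their sums were 723 and 780 CPM in cluster 0, 698 to 1357 CPM in cluster 2, 807 and 1309 CPM in cluster 3 and 880 CPM in the 1 sum of cluster 4. The 8 genes other than Jun and Jund were at 131 and 174 CPM in cluster 0, 73.4 to 329 CPM in cluster 2, 179 and 635 CPM in cluster 3 and 554 CPM in cluster 4. The ranges of clusters 2 and 3 overlap only through the 329 CPM, the plate 1 sum of cluster 2, which held 3 cells. For 2 of the 10 genes, Fos and Dusp1, both sums of cluster 3 lay above all 5 of clusters 0 and 2. Of the 4412 genes with a transcript in at least 30 cells 14.2% did, so 2 of 10 is not far from that share. Ier2 is not among the 4412, and 6 of the 10 genes are so only through cluster 1. Fos had 44.8 and 61.2 CPM in cluster 3 against 0 to 33.9 CPM, and Dusp1 had 44.8 and 84.1 CPM against 5.23 to 41.1 CPM. The lower value of each rests on 1 identifier of plate 3. In turn, the plate 1 sum of cluster 2, with 3 cells, was the highest of clusters 0 and 2 for Fosb, Jun and Zfp36. It was at 123, 822 and 123 CPM for these genes, so the count of 2 depends on it.

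A single cell set much of the level of cluster 3 on plate 1. It held all 10 genes, with 34 identifiers of Jun, 10 of Zfp36, 9 of Egr1 and 72 in all, 1.17% of its transcripts. Without it the summed level of that cluster and plate was 795 CPM instead of 1309 CPM, Jun was 305 CPM instead of 552 CPM, and Fos and Dusp1 remained above clusters 0 and 2 at 48.2 and 72.2 CPM. The 8 microglial markers made up 0.599% of the transcripts of this cell, between the medians of 0.0468% in cluster 3 and 3.53% in cluster 1. Their part in its level was not tested.

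Free RNA from broken cells can put transcripts in wells of other cell types, and the share of cells with a microglial marker serves here as a gauge of it, in the same cells and so at the same depth. The median share over the 8 markers was 15.5%, 17.1%, 26.7% and 33.3% in clusters 0, 2, 3 and 4, and 97.2% in cluster 1. In cluster 1 each marker had at least 199 identifiers, more than every early gene but Jun at 335 and Egr1 at 319. The shares are not scaled to these levels, so a share below the markers does not tell free RNA from expression. Fos was found in 61.1% of the cells of cluster 1 (exact binomial 95% interval 43.5% to 76.9%) and in 26.2%, 8.57% and 23.3% of those of clusters 0, 2 and 3. Egr1 was found in 77.8% of the cells of cluster 1 (60.8% to 89.9%) and in 14.3% and 5.71% of those of clusters 0 and 2. In cluster 2, 7 genes had a share below that of the markers, all but Jun, Jund and Zfp36, and no expression is read from these shares. In cluster 0 the same held for Fosb, Egr1, Ier2 and Dusp1, and in cluster 3 Fos, Fosb, Junb, Ier2 and Dusp1 were at or below the markers. Fos, Junb, Egr1, Btg2 and Dusp1 lay above them in cluster 4, with 3 to 5 of its 6 cells each.

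Jun and Jund, in 77.1% and 88.6% of the cells of cluster 2, were found there more often than any microglial marker, the highest of which was at 34.3%. The 8 genes without them had 0.190 transcripts per transcript of the microglial markers in cluster 1 and 0.660, 0.667, 0.791 and 1.37 in clusters 0, 2, 3 and 4, with the plates pooled. The part of free RNA in these levels was not tested.

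In single cells, the difference between clusters was a difference in the bulk of cells. The 10 genes took a median of 1.05% of the transcripts of a cell in cluster 1, from 0 to 2.81%, with plate medians of 0.867%, 1.10% and 1.14%. The medians were 0.0691%, 0.0780%, 0.0705% and 0.0842% in clusters 0, 2, 3 and 4. A cell of cluster 1 held a median of 7 of the 10 genes, beside 3, 2, 2.5 and 6.5 in clusters 0, 2, 3 and 4. Since cells of cluster 1 were shallower, each cell was also thinned to 1000 identifiers: the mean was then 4.29 genes in cluster 1 and 0.710, 0.710, 0.914 and 0.734 in the others, against 6.31, 3.14, 2.60, 2.80 and 5.83 before thinning. The high count of cluster 4 was lost at equal depth, and that of cluster 1 was not.

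**Figure D2:**
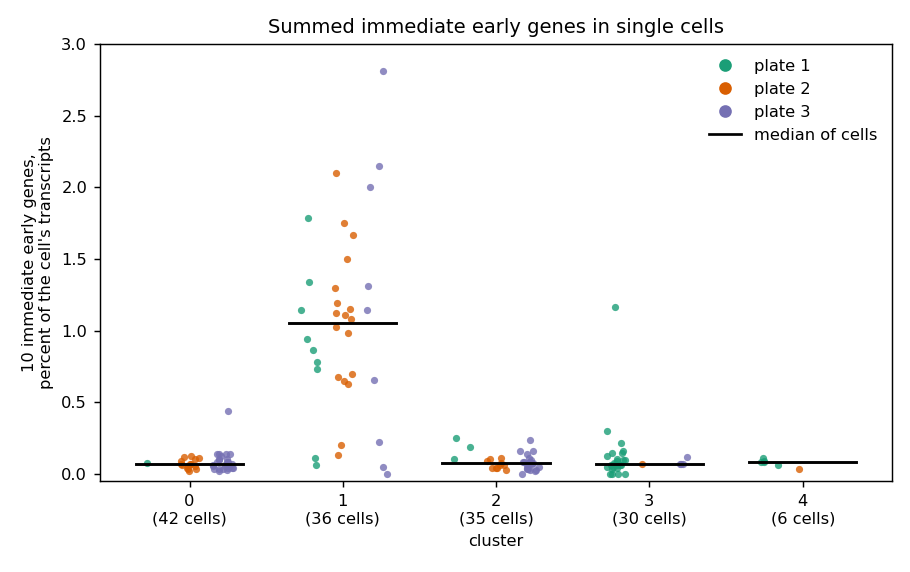
Share of the transcripts of a cell that the 10 genes took, in percent, for each of the 149 cells by cluster, coloured by plate, with a bar at the median of the cells. Most cells of cluster 1 lie above 0.5%, and 1 cell of another cluster, in cluster 3 on plate 1 at 1.17%, does as well.

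The early genes were not uniform within cluster 1. Its lower quartile for the 8 genes without Jun and Jund was 0.331% of transcripts, a level that 1 of the 113 other cells reached, the cell of cluster 3 already described. In contrast, 3 of the 36 cells of cluster 1 had no identifier of those 8 genes. The first of these, on plate 1, had 1 identifier of Jun, an autofluorescence of 218 and microglial markers at 0.186% of its transcripts, far below the cluster median. Leaving it out raised the summed level of plate 1 from 8360 to 8806 CPM. The other 2, on plate 3, had microglial markers at 3.19% and 3.54%, close to the cluster median of 3.53%. At the other end, the highest cell, on plate 3, gave 2.81% of its transcripts to the 10 genes, with 14 identifiers of Zfp36, 11 of Jun, 10 of Dusp1 and 9 of Egr1.

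The spread between cells of cluster 1 was measured by an index of dispersion, the variance of the identifiers over that expected from the depth of each cell, which is 1 where cells differ by counting alone. The 36 cells of the 3 plates were pooled for it, so differences between plates enter the index as well. For 8 of the 10 genes it lay above 1.85, the median of the 499 genes with at least 1 identifier per cell. It was 6.47 for Dusp1, 5.91 for Egr1, 5.54 for Fosb and 4.86 for Fos. Dusp1 was found in 10 of the 36 cells, and 2 cells, 1 on plate 2 and 1 on plate 3, held 10 identifiers each and together gave 54.1% of its 37. The index was 4.76 for Jun, 3.99 for Zfp36, 3.07 for Jund and 2.79 for Junb, and it was lowest for Ier2 at 1.48 and Btg2 at 1.38. The median index was 1.68 over genes with 1 to 2 identifiers per cell and 3.03 over the 50 genes with 5 to 20, the range of Jun and Egr1. Microglial markers ranged from 1.13 for C1qa to 6.13 for P2ry12, so a wide spread was no mark of the early genes alone.

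**Figure D3:**
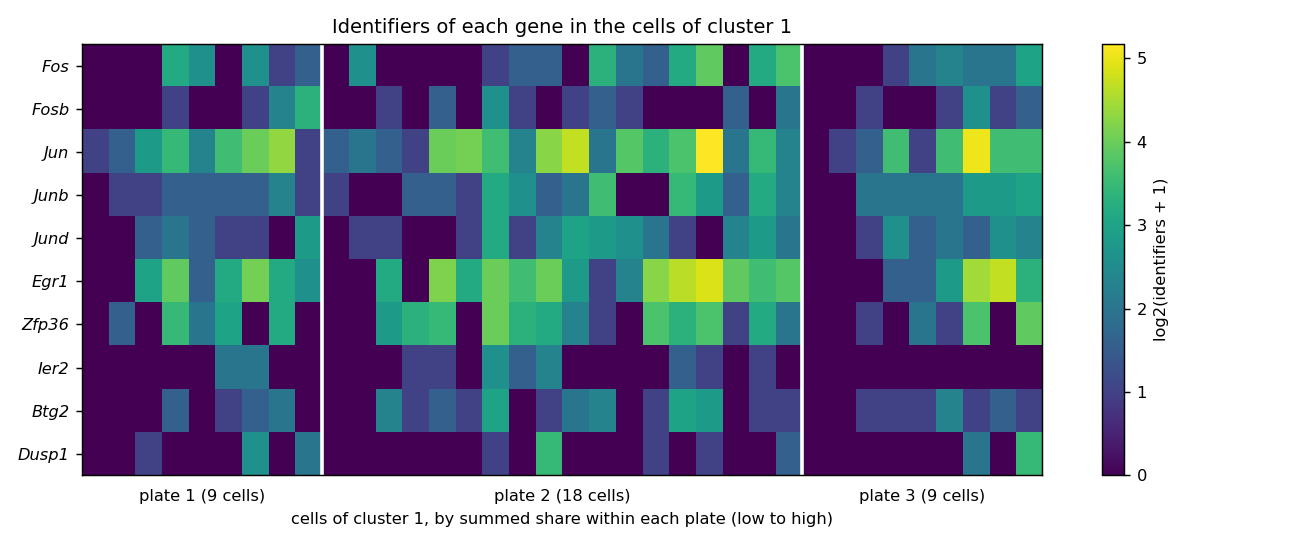
Identifiers of each gene, as log2(identifiers + 1) by colour, in the 36 cells of cluster 1, ordered within each plate from the lowest to the highest summed share. Cells at the left of a plate are dark for most genes, and Jun and Egr1 are bright in many cells at the right. Zfp36 is bright in some cells at the right and dark in others.

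The genes tended to be high in the same cells of cluster 1. Of the 45 pairs, 43 had a positive Pearson correlation of log2(CPM + 100) over the 36 cells once the mean of each plate was removed, with a median of 0.32. The highest was 0.71, between Jun and Egr1, followed by 0.57 between Jund and Egr1, and the lowest was -0.18, between Fosb and Ier2. Over the 113 other cells, centred by plate and cluster, 42 of 45 pairs were positive with a median of 0.16. The values of a cell share its depth and its well, so these are descriptions and carry no p. The share of positive pairs among other genes was not taken, so the counts are not shown to be particular to these genes. The 36 cells include the cell of plate 1 with few microglial markers.

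Genes with the most similar pattern were sought by their correlation with the summed 10 genes over all 149 cells, on the same scale and centred by plate and cluster. Among the 10 highest of 4403 genes were Ucp2 at 0.36, 4632428N05Rik at 0.35, Rgs2 at 0.34, Cdk9 at 0.33, Nfkbia and Dusp6 at 0.32, Zfp36l2 at 0.32, Pag1 at 0.31 and Inpp5d at 0.30, while the median gene was at 0.01. Nfkbia, Dusp6 and Zfp36l2 belong to the list of other immediate early genes described next. These 9 were higher in cluster 1 than in any other cluster, for instance Rgs2 at 1007 CPM against at most 9.92 CPM and Ucp2 at 779 CPM against at most 166 CPM. The 10 genes were high mainly in cluster 1, so the ranking favours genes found there and this placement is no separate result. Inpp5d, Dusp6 and Rgs2 had a transcript in only 32, 35 and 38 cells. The share of all 4403 genes placed in this way was not counted.

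A wider list of 63 other immediate early and dissociation genes had 57 measured, of which 54 had a transcript. For 19 of these 54, all sums of cluster 1 lay above all others, beside 5.86% of all genes with a transcript. The 6 with the highest level over all cells were Rhob, Zfp36l1, Sgk1, Mcl1, Tob1 and Nfkbia. Rhob, a small GTPase, was at 1708 CPM in cluster 1 and at 1150 and 1013 CPM in clusters 0 and 2. Sgk1, a stress kinase, was at 1102 CPM in cluster 1 and at most 82.7 CPM in another cluster. Zfp36l1, a relative of Zfp36, was at 968 CPM in cluster 1 and 541 CPM in cluster 3, where its sums overlapped. Mcl1, a survival factor, was at 448 CPM and Nfkbia, the inhibitor of NF-kappaB, at 472 CPM in cluster 1. Tob1, a relative of Btg2, went the other way, with 23.6 CPM in cluster 1 and 161 and 140 CPM in clusters 0 and 2, and so did Arc, with 7.86 CPM against 105 and 86.9 CPM, and Dusp10, with 7.86 CPM against 42.5 and 104 CPM, which were named after their values were seen. Of 12 heat shock genes 1, Hspa5, a chaperone of the endoplasmic reticulum, had its sums of cluster 1 above all others, and of 24 genes of the upstream kinases and factors 1 did, Elk3, a partner of serum response factor, with 31 identifiers in all.

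Autofluorescence was compared within each plate, cells above the plate median (high) against the rest (low), 73 against 76 cells, with sums per plate and class fitted in edgeR with the plate as a block. The brightest cells were microglia-like: the median autofluorescence was 4896 in cluster 1 and 1022 to 1826 in the others, in arbitrary units, and the high class held 32 of the 36 cells of cluster 1. Of the 9 early genes that passed the filter on low counts 5 rose in high cells, beside 3.89% of the 3723 genes tested, and Ier2 did not pass the filter. Among these 5, Junb and Fosb met the threshold of the filter in high sums only, with at most 40.6 CPM in low sums. Their entry into the test thus depended on the class where they were high. All 8 microglial markers rose as well, with a median log2 change of 3.38.

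Junb was at 128, 324 and 132 CPM in high cells of plates 1, 2 and 3 and at 40.6, 32.4 and 26.2 CPM in low cells. Its log2 change was 2.49 (SE 0.45, adjusted p = 0.00124, edgeR quasi-likelihood test with Benjamini-Hochberg adjustment). Egr1 was at 520, 785 and 265 CPM in high cells and at 180, 204 and 26.2 CPM in low cells, a change of 2.14 (SE 0.39, adjusted p = 0.00124, edgeR). Both were higher in high cells on 3 of 3 plates. Fosb rose by 2.12 (SE 0.56, adjusted p = 0.0279), Fos by 1.73 (SE 0.40, adjusted p = 0.0109) and Zfp36 by 1.57 (SE 0.37, adjusted p = 0.0116), all in edgeR and higher on 3 of 3 plates. Btg2 had 1.34, Jun 1.12, Dusp1 0.97 and Jund 0.26, with adjusted p values of 0.242, 0.0577, 0.516 and 0.888 in edgeR, and did not pass. Of 16 genes of the wider list 4 rose, beside 3.89% of all genes tested: Dusp6 by 2.63, Zfp36l1 by 1.71, Zfp36l2 by 1.63 and Sgk1 by 1.40. Dusp6 was at 527 CPM in cluster 1, at 95.5 CPM in cluster 3 and at 0 in clusters 0 and 2. Its entry into the test may thus also depend on the class where it was high, which was not checked. With no plate block 0 of the 9 early genes passed, and without plates 2 and 3 in turn 0 of 9 and 1 of 10 did, although the direction was kept.

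High cells also had a larger share of transcripts from microglia-like cells, and the part of this in the rise was not tested. Cells of cluster 1 gave 22.4%, 32.5% and 9.56% of the transcripts of high cells on plates 1, 2 and 3 and 0.937%, 4.39% and 0 of those of low cells. They gave 76.7%, 87.9% and 65.3% of the summed early gene transcripts of high cells. Once they were set aside with the split kept, the 10 genes together were at 773, 667 and 670 CPM in high cells and at 1324, 727 and 856 CPM in low cells, which is lower in high cells on 3 of 3 plates. Without the cell of cluster 3 that held all 10 genes, a low cell of plate 1, the value of 1324 became 936 CPM.

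With the median drawn over the cells outside cluster 1, 2 of the 10 genes passed the filter, Jun with -0.30 (SE 0.37, adjusted p = 0.937) and Jund with -0.26 (SE 0.38, adjusted p = 0.95) in edgeR. Jun was at 336, 229 and 253 CPM in high cells and at 521, 303 and 277 CPM in low cells, lower in high cells on 3 of 3 plates, while Jund differed in direction between plates. Neither was called, beside 0.378% of the 2913 genes tested, and 0 of the 2 had an unadjusted p under 0.05 or was called by DESeq2. In clusters 0 and 2 alone, on the 2 plates with enough cells, Jun had -0.35 (SE 0.28) and Jund -0.29 (SE 0.25) in a fit with 1 residual degree of freedom. Neither was called in edgeR or DESeq2, 0 had an unadjusted p under 0.05, and 0.0319% of the 3138 genes tested were called.

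With the split drawn within each plate and cluster, which puts near equal numbers of each cluster on both sides, 0 of the 8 early genes tested passed in edgeR, beside 0.0879% of 3412 genes, and DESeq2 called 0 as well. Egr1 had -1.09 (SE 0.27, adjusted p = 0.0825, edgeR) and Fos -1.14 (SE 0.36, adjusted p = 0.218, edgeR), the 2 genes with an unadjusted p under 0.05. The microglial markers were lower in high cells as well: all 8 had a negative value, with a median of -0.95, and P2ry12, which fell by 1.55 (SE 0.28, adjusted p = 0.00442, edgeR), and Csf1r, which fell by 1.13 (SE 0.25, adjusted p = 0.0380, edgeR), were 2 of the 3 genes called. Together they were at 3038, 5277 and 1201 CPM in high cells of plates 1, 2 and 3 and at 5443, 8872 and 3197 CPM in low cells. Egr1 was at 252, 343 and 82.4 CPM in high cells and at 449, 687 and 258 CPM in low cells. Zfp36, Junb, Btg2, Jun and Dusp1 had values from -0.70 to -0.18 and Jund had 0.04. Bright cells of cluster 1 held fewer transcripts, with medians of 2911, 3291 and 1732 against 4370, 3853 and 2517 in dim ones, and cluster 1 gave 7.58%, 15.5% and 3.06% of the transcripts of high cells and 14.1%, 21.98% and 7.99% of those of low cells. The part of this in the values was not tested.

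**Figure D4:**
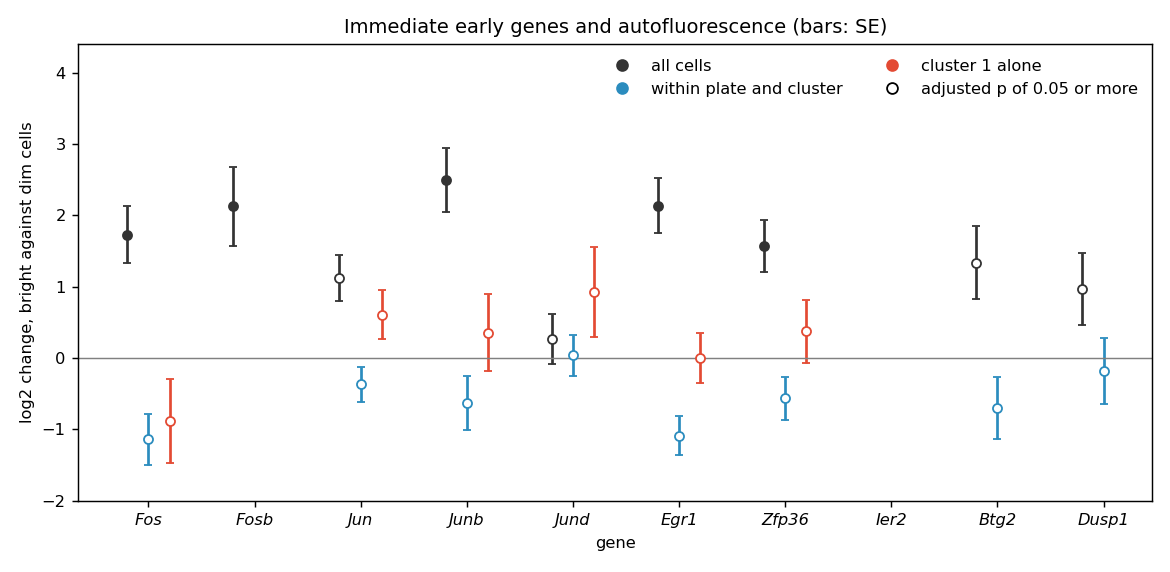
Log2 change of each gene from low to high autofluorescence with its SE, over all cells, with the split within plate and cluster, and in cluster 1 alone (filled, adjusted p under 0.05 in edgeR). Over all cells the 9 genes tested lie above 0 and 5 are filled, and within plate and cluster 7 of 8 lie below 0 and none is filled.

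In cluster 1 alone, with 17 high and 19 low cells, 210 genes passed the filter and 0% were called in edgeR, 2 with an unadjusted p under 0.05, while DESeq2 called 0 and had 0 at that level. Of the 6 early genes tested 0 were called. Jund had 0.93 (SE 0.63), Jun 0.61 (SE 0.34), Zfp36 0.38 (SE 0.44), Junb 0.36 (SE 0.54), Egr1 0.00 (SE 0.36) and Fos -0.88 (SE 0.58). Fos was at 277, 672 and 671 CPM in high cells and at 956, 1092 and 1007 CPM in low cells, lower in high cells on 3 of 3 plates, with an adjusted p of 0.999 in edgeR. Intervals of this width do not show that the levels were equal. The difference between the effect in cluster 1 and that in clusters 0 and 2 was tested as an interaction: 0 of the 10 early genes and 0% of the 1138 genes passed in edgeR, 39 genes had an unadjusted p under 0.05, and DESeq2 called 0 with 27 at that level. The 1 early gene at that level was Jund, with a difference of 1.12 (SE 0.52).

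**Figure D5:**
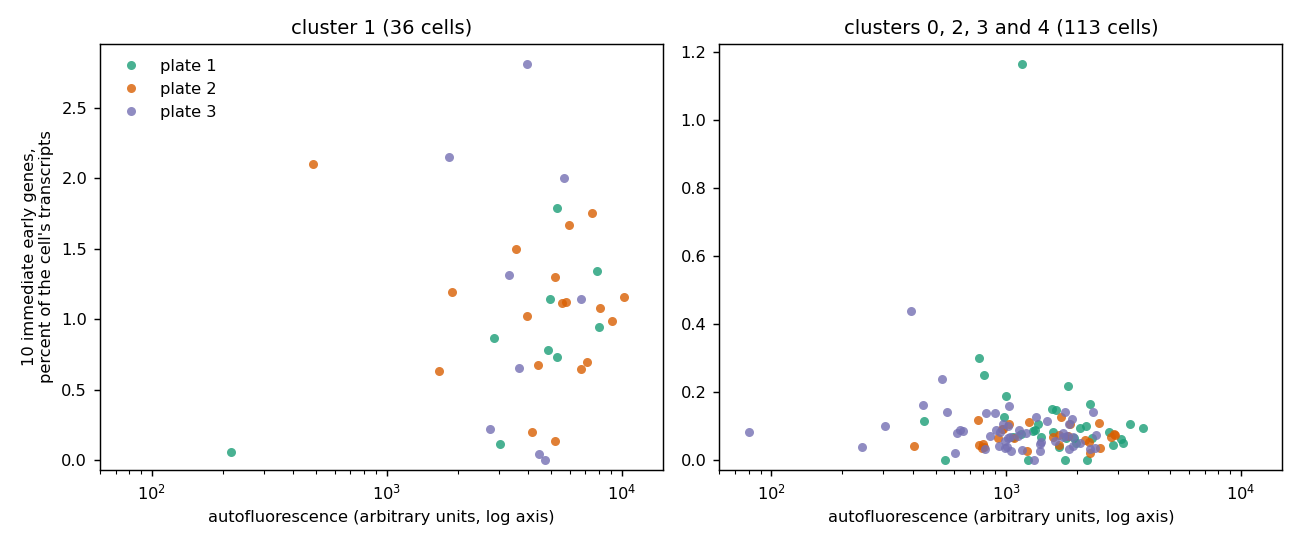
Share of transcripts of the 10 genes in each cell, in percent, against its autofluorescence in arbitrary units on a log axis, for cluster 1 and for all other cells, coloured by plate, with a different vertical scale in each panel. In cluster 1, cells with a low and with a high share overlap in autofluorescence, and most other cells lie below 0.2% whatever their autofluorescence.

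Cell by cell, the summed share in cluster 1 had a Spearman correlation of 0.11 with autofluorescence over the 36 cells centred by plate. It was 0.70 over the 9 cells of plate 1, -0.02 over the 18 cells of plate 2 and -0.20 over the 9 cells of plate 3, so the plates did not share a direction. Over the 113 other cells, centred by plate and cluster, the correlation was -0.21. Within cluster 1 it was -0.06 with the total of transcripts, -0.28 with the share of microglial markers and 0.23 with the percent of mitochondrial transcripts, the last being 0.18, 0.56 and -0.40 on plates 1, 2 and 3. Cells that the authors called G0 and G1 in cluster 1 had medians of 1.16% over 16 cells and 0.784% over 17 cells, and the range of the latter, 0.114% to 1.75%, lies within that of the former.

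Depth was compared like autofluorescence, with cells above the median total of their plate and cluster against the rest. In edgeR 0 of the 9 early genes and 0% of the 3020 genes tested passed, 144 genes had an unadjusted p under 0.05, and DESeq2 called 0 with 31 at that level. Junb had -0.90 (SE 0.37) and Fos -0.88 (SE 0.36), the 2 early genes at that level, both with an adjusted p of 0.807 in edgeR. Fos was at 133, 125 and 40.1 CPM in deep cells and at 117, 286 and 123 CPM in shallow cells, so the plates differed in direction. Jun had 0.42 (SE 0.25), and the other 6 genes lay between -0.46 and 0.02.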

How the data were processed

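Estimated counts of transcripts per gene and cell were used as the authors deposited them; undoing a collision correction with 4096 identifiers turned 100% of the 349688 nonzero values into integers, within 1e-06. The authors' deposited autofluorescence intensity (linear, arbitrary units), count of genes per cell, percent of mitochondrial transcripts, phase calls and cluster numbers were used unchanged, and 11 other columns of that table were not used. Per the submitters' processing notes, tools included Seurat 4.1.1, R 4.2.0 and BWA 0.7.15, and builds mm10 and hg19, with no role stated. The gene annotation was not given in the sources used here. Days and plates, 3 of each in the design text, are read as 1 experiment per plate. The plate of a cell is the last digit of its library name. Of 86 well positions with a cell, 50 held one on more than 1 plate, since plates share their well barcodes. No doublet caller was run.

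CPM are estimated transcripts per 1000000 of the summed cells, with exact 95% Poisson intervals. Sums per plate and class, each of at least 3 cells on each side, were rounded and tested with edgeR 4.0.16 in R 4.3.3 (TMM, filterByExpr, plate as a block, quasi-likelihood F test, Benjamini-Hochberg adjustment over all genes tested at 0.05), and the procedure was tested on simulated data. The plate pairs both classes because they were sorted from the same animals. The p-values measure the spread between these sums only. DESeq2 1.42.0, other size factors, no filter, no block, whole identifiers and plates left out were alternatives. All 10 genes are named; from the wider list, those past the threshold (at most 10) and the 6 of highest level; of similar patterns, the 10 highest correlations, of which 1 is not reported here. The genes and lists were chosen with earlier results of these data known. Figures were drawn with matplotlib 3.10.9.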

Additional observations from a re-analysis of the deposited data

Results flagged for a closer look

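The 86 wells that the authors left out of the filtered table also held these transcripts. They had 28614 identifiers in all and a median of 265.5 per well, and they enter no comparison. The 10 genes together had 82 identifiers in 46 of these wells, 2865.7 CPM with an exact 95% Poisson interval of 2279 to 3557 CPM, which lies between the levels of cluster 1 and of the other cells. Jun, with 38 identifiers, stood at 1328 CPM (940 to 1823), Jund at 419.38 CPM, Zfp36 at 279.58 CPM and Fos at 174.74 CPM. Fosb, Junb and Dusp1 stood at 139.79 CPM, with 4 identifiers each. All of these rest on more than 3 identifiers, which would give 105 CPM, while Egr1, Ier2 and Btg2 had 3, 2 and 2. The exact 95% interval was 56.7 to 408 CPM for Fos and 38.1 to 358 CPM for Fosb, Junb and Dusp1. These intervals include 105 CPM. The cell types in these wells and their plates were not assigned here.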

How the results depend on the processing

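Over all cells, 5 early genes rose with autofluorescence. Other size factors and no filter gave 6, DESeq2 and the top against the bottom tertile gave 4, and whole identifiers gave 5. Leaving out 1 plate gave 0 to 6, with 0 without plate 2 and 1 without plate 3, and the fit with no replicate block gave 0, with 0 of 3723 genes called and 207 at an unadjusted p under 0.05. With the split within plate and cluster, where 0 passed, other size factors called 1, Egr1 at -1.08, and leaving out 1 plate gave 0 to 1, the 1 being Egr1 at -1.25 without plate 1. The no replicate block fit changed no other count of early genes.

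Of 371 values of single genes under alternatives, 329 kept their direction and side of the threshold, 17 kept direction but no longer passed, 6 newly passed and 19 changed sign; the cause was not tested. No gene that passed over all cells changed sign there. In cluster 1 alone Egr1, at 0.00, became -0.02 with other size factors and in DESeq2, -0.28 with no filter, -0.03 with no block and -0.01 with whole identifiers, and by depth Btg2 became -0.02 in DESeq2. The other changes of sign came from leaving out 1 plate. In cluster 1 these gave -0.35 to 0.24 for Egr1 and -0.02 to 1.92 for Jund, and outside it -0.50 to 0.00 for Jund. Within plate and cluster they gave -0.29 to 0.54 for Jund and -0.44 to 0.07 for Dusp1. By depth they gave -0.64 to 0.25 for Zfp36, -0.27 to 0.22 for Btg2 and -0.77 to 0.00 for Dusp1. In the interaction they gave -0.38 to 1.95 for Fosb, -1.30 to 0.91 for Zfp36, -0.74 to 1.36 for Btg2 and -2.85 to 4.25 for Dusp1.

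The mean summed level of cluster 1 was 9332 to 11120 CPM with 1 plate left out, 10220 CPM as a mean over cells and, in a check chosen after seeing the data, 10350 CPM without the cell with few microglial markers. Clusters 0 and 2 alone could not be fitted without plate 2 or plate 3, since no residual degrees of freedom remain. With 36 cells at a median of 3455 transcripts, cluster 1 alone left 210 genes to test, 6 of them early genes, and Ier2 was too sparse for all but the interaction.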
